A study of Mus musculus with 7 samples.

Results

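The 8 mouse guanylate-binding protein genes Gbp2, Gbp3, Gbp4, Gbp5, Gbp6, Gbp7, Gbp8 and Gbp9 were found by symbol among the 33696 genes of the deposited count matrices, and all 8 were measured. Their unique molecular identifiers (UMIs, each standing for 1 captured transcript) were counted in macrophage, endothelial, T/NK and tumor cells of each library. The libraries came from 7 subcutaneous tumors of JW23.3, a mouse malignant peripheral nerve sheath tumor (MPNST) line in which Nf1 and Trp53 are knocked out, profiled by droplet single-cell RNA-seq (scRNA-seq) with 1 library per tumor. All hosts were wildtype female C57/B6 mice, 5 to 6 weeks old at implantation, with an intact immune system, and the tumor cells were male. In the irradiated group (n = 4), 5 daily fractions of 2 Gy were given to the tumor, with lead shielding around it, after randomization on day 7. The control group (n = 3) was not irradiated, and all tumors were harvested on day 21 and dissociated with papain. The comparison of these groups asked how transcripts of tumor and host cells differed after radiotherapy (RT), in an allograft model that rests on 1 tumor cell line.

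Guanylate-binding proteins are large GTPases that are among the most strongly interferon-induced genes of mouse cells. Interferon-gamma, made by T and NK cells, induces genes through gamma-activated sequences (GAS), and interferon-stimulated response elements (ISRE) are a further class of induced site. The proteins assemble as coats on microbes and their vacuoles, open them to the cytosol and feed into inflammasome activation. In tumors their transcripts are commonly used as a readout of interferon exposure.

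In the mouse the genes lie in a pair of clusters. In the GENCODE M21 models on GRCm38, the cluster on chromosome 3 (plus strand) runs from Gbp5 (chr3:142493978-142522344) through Gbp7 (chr3:142530342-142550149) and Gbp3 (chr3:142560026-142573209) to Gbp2 (chr3:142620602-142638008). The cluster on chromosome 5 (minus strand) holds Gbp8 (chr5:105014150-105139540), Gbp9 (chr5:105077630-105139539), Gbp4 (chr5:105115767-105139586) and Gbp6 (chr5:105270702-105293698). The models of Gbp4, Gbp8 and Gbp9 overlap, with 61 exonic bases common to Gbp4 and Gbp8 and 60 common to Gbp4 and Gbp9. Of the 60-base words in the last 600 bases of the longest Gbp6 transcript, where a 3′ assay reads, 76.0% also occurred in Gbp10, and 88.9% of those of Gbp10 occurred in Gbp6. Reads from the shared words may have been assigned to either gene or left uncounted, and which of these occurred was not tested. Counts of Gbp6 and Gbp10 are uncertain to that extent and may be too low. The same share was 3.51% for Gbp4, 0.185% for Gbp9 and 0 for the other 5 members.

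RefSeq promoter windows of 300 bases (GRCm38.p6, 250 bases before to 50 after the start) were matched for 4 of the 8 members, all on chromosome 3. Only these are printed because no window was matched for the other members. Capitals mark matches to the GAS-type letters TTCNNNGAA or to the ISRE-type letters GAAANNGAAA read on either strand (TTTCNNTTTC on the printed strand), and no match of one motif overlapped a match of the other. The windows are chr3:142620413-142620712 for Gbp2, chr3:142559794-142560093 for the first of 2 starts of Gbp3, chr3:142496684-142496983 for Gbp5 and chr3:142530086-142530385 for Gbp7, all on the plus strand and printed 5′ to 3′.
Gbp2: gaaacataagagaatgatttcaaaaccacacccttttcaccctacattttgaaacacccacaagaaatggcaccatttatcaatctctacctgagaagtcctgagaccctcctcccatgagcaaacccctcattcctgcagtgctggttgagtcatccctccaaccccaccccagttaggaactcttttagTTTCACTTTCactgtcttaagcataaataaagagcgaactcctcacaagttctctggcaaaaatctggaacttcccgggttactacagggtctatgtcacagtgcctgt
Gbp3: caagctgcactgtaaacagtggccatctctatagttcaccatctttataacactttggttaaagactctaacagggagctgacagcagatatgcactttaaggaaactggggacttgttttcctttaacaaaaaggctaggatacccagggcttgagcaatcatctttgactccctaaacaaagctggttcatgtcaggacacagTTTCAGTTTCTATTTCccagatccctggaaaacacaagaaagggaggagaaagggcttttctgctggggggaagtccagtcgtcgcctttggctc
Gbp5: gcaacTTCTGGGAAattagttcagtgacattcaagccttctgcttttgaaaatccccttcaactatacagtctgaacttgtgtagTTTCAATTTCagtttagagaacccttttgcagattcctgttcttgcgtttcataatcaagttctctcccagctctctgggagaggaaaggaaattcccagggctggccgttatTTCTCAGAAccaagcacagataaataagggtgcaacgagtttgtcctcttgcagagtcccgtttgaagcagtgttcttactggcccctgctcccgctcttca
Gbp7: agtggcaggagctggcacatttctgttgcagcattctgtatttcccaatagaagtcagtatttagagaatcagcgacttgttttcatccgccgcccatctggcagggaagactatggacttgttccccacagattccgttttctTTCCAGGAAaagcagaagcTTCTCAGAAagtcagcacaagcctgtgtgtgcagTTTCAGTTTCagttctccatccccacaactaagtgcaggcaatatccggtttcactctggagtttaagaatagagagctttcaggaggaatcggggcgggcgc
Each of the 4 matched members held an ISRE-type match, which 3.44% of all 32851 promoter windows of that length held. In Gbp2 it began at position −59 from the start, in Gbp3 overlapping matches began at −45 and −39, in Gbp7 it began at −53, and in Gbp5 at −165. A GAS-type match was found in Gbp5 (−245 and −52) and Gbp7 (−106 and −87), against 8.30% of all windows, and both motifs together were found in 0.454% of windows. The second start of Gbp3 held neither set of letters. These matches describe the printed letters and are not measured binding sites.

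The 7 libraries held 39537 cells, with 2859 to 8452 cells per library and a median of 6058.5 to 17930.5 UMIs per cell, and 34296 cells were retained after filtering. Marker gates placed 11924 retained cells in the macrophage class, 441 in the endothelial, 1298 in the T/NK and 14833 in the tumor class, and 5800 were in none. Xist, transcribed in the female hosts and not in the male tumor line, was detected in 89.8%, 88.9% and 90.5% of macrophage, endothelial and T/NK cells, and its absence was part of the tumor gate. Markers kept out of the gates followed the classes: Lyz2 averaged 5673 CPM (UMIs per 1000000 UMIs of the class in a library) in macrophage cells and 18.0 CPM in tumor cells, and Cd3g averaged 611 CPM in T/NK cells and 0.242 CPM in macrophage cells. The fibroblast markers Dcn and Lum were at 533 and 554 CPM in the tumor class, so fibroblasts lacking a Xist UMI cannot be told apart from it by those genes. Of the 39537 barcodes, 190 occurred in more than 1 library, at most 19 in a pair. No label names a batch. The libraries were divided into 2 sets, called technical sets here, by cell number, UMIs and genes per cell, and mitochondrial share. Of 63 possible splits this one left the least variation within sets, a share of 0.489 against 0.544 for the next. Whether the sets are batches or follow the mix of cells in each tumor was not tested. They crossed the groups: set 1 held irradiated 1, control 2 and control 3, and set 2 held irradiated 2, 3 and 4 and control 1.

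Across the cell classes, the 8 genes did not share a single pattern. Gbp4, Gbp6, Gbp8 and Gbp9 of the chromosome 5 cluster were all lower in macrophage than in T/NK cells, as was Gbp7 of the chromosome 3 cluster, whereas Gbp2 and Gbp3 were higher, a call that was lost with library totals, and Gbp5 did not differ by the test. Tumor cells were never above another class by the test except for Gbp6, which was lower in macrophage than in tumor cells. These levels were compared within libraries with the quasi-likelihood test of edgeR, adjusted by Benjamini-Hochberg over 15924 genes, gate genes left out, and n = 7 libraries (6 for endothelial cells, since irradiated 2 had 18 of the 20 cells required). Many genes differ between cell types, so the background is high: 57.5% of genes were called between macrophage and endothelial cells, 60.6% between macrophage and T/NK, 82.4% between macrophage and tumor, 52.0% between endothelial and T/NK, 58.1% between endothelial and tumor, and 73.6% between T/NK and tumor cells. Of the 8 members, 5, 7, 7, 5, 7 and 6 were called in these contrasts, in the same order, which equals 62.5%, 87.5%, 87.5%, 62.5%, 87.5% and 75.0% of the members.

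Gbp4, a member reported to bind the interferon regulator IRF7, had the widest spread between classes. Its mean level was 105 CPM ± 41.4 (SD, n = 6) in endothelial and 97.5 ± 14.0 (n = 7) in T/NK cells, but 7.68 ± 5.56 in macrophage and 5.10 ± 7.19 in tumor cells. T/NK cells exceeded tumor cells by 4.89 on the log2 scale (SE 0.43, adjusted p = 4.7e-09) and the difference macrophage minus T/NK was −3.57 (SE 0.43, adjusted p = 5.4e-07). Endothelial cells exceeded tumor cells by 4.84 (SE 0.47, adjusted p = 4.3e-08), and endothelial and T/NK cells did not differ beyond their spread (difference −0.05, SE 0.47). Macrophage cells were above tumor cells by 1.32 (SE 0.38, adjusted p = 0.0039).

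Gbp6 and Gbp8, for which less is known, were highest in T/NK cells. Gbp6 averaged 59.1 CPM ± 24.1 there, against 17.8 ± 16.2 in tumor, 17.0 ± 25.8 in endothelial and 9.42 ± 5.45 in macrophage cells. The T/NK level was 1.92 above tumor cells (SE 0.19, adjusted p = 7.7e-10) on the log2 scale, and the difference macrophage minus T/NK was −2.33 (SE 0.21, adjusted p = 6.1e-11). The lower Gbp6 level in macrophage than in tumor cells (−0.41, SE 0.17, adjusted p = 0.025) was lost with stricter gates (−0.32) and without irradiated 2 (−0.35), irradiated 4 (−0.27) or control 1 (−0.19), and without irradiated 4 Gbp6 was also lower in endothelial than in tumor cells (−0.95, adjusted p = 0.023). Gbp8 averaged 84.9 CPM ± 14.9 in T/NK, 40.1 ± 10.9 in endothelial, 14.1 ± 6.01 in macrophage and 10.4 ± 8.17 in tumor cells, and each neighbor in that order differed by the test. The step from T/NK to endothelial cells (endothelial minus T/NK −1.13, SE 0.38, adjusted p = 0.016) was lost with stricter gates (adjusted p = 0.20) and without irradiated 1 (adjusted p = 0.055), and that from endothelial to macrophage cells (macrophage minus endothelial −1.18, SE 0.38, adjusted p = 0.011) without control 2 (adjusted p = 0.059). Gbp9 was alike in T/NK (40.1 CPM ± 8.75) and endothelial cells (39.1 ± 13.2), with a difference endothelial minus T/NK of −0.02 (SE 0.33). It was also alike in tumor (14.7 ± 11.1) and macrophage cells (11.01 ± 4.67). There the fitted difference macrophage minus tumor was 0.08 (SE 0.21), opposite in sign to the CPM means. T/NK cells exceeded tumor cells in Gbp9 by 1.59 (SE 0.26, adjusted p = 6.9e-06).

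Gbp2 and Gbp3, which coat intracellular pathogens, were highest in endothelial cells. Gbp2, whose protein is lipid-anchored to membranes, averaged 92.0 CPM ± 74.6 in endothelial, 49.8 ± 34.2 in macrophage, 39.0 ± 36.4 in tumor and 33.5 ± 9.83 in T/NK cells. Endothelial and macrophage cells did not differ by the test (macrophage minus endothelial −0.40, SE 0.21, adjusted p = 0.12). T/NK and tumor cells did not either (T/NK minus tumor −0.11, SE 0.22), and macrophage exceeded tumor cells by 0.74 (SE 0.16, adjusted p = 1.7e-04). Gbp3 averaged 57.9 CPM ± 26.0, 27.5 ± 8.64, 21.4 ± 9.30 and 19.6 ± 14.6 in endothelial, macrophage, T/NK and tumor cells, with endothelial 1.67 above tumor cells (SE 0.26, adjusted p = 8.3e-06). Its difference between macrophage and endothelial cells (−0.62, SE 0.26, adjusted p = 0.042) was lost without irradiated 2 (−0.60), control 1 (−0.42), control 2 (−0.56) or control 3 (−0.63).

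Gbp5, which promotes NLRP3 inflammasome assembly, was highest in endothelial cells, at 68.0 CPM ± 42.0, against 27.8 ± 15.8 in T/NK, 16.3 ± 8.78 in macrophage and 10.2 ± 10.1 in tumor cells. The endothelial level was 3.00 above that of tumor cells (SE 0.36, adjusted p = 3.3e-07) and 1.35 above that of T/NK cells (SE 0.41, adjusted p = 0.0082), and macrophage and T/NK cells did not differ by the test (−0.37, SE 0.35). Gbp7, which takes part in oxidative defense and in the formation of autophagosomes, averaged 107 CPM ± 30.1 in T/NK, 78.5 ± 35.7 in endothelial, 54.7 ± 9.81 in macrophage and 30.1 ± 21.3 in tumor cells. It was 1.40 higher in macrophage than in tumor cells (SE 0.18, adjusted p = 1.4e-07), and its difference between macrophage and T/NK cells (−0.54, SE 0.20, adjusted p = 0.023) was lost with stricter gates (−0.44) and without irradiated 2 (−0.48), irradiated 3 (−0.47) or control 1 (−0.38). With library totals in place of TMM factors the median gene moved by −0.49 between macrophage and endothelial, −0.34 between macrophage and T/NK, −0.28 between macrophage and tumor, 0.13 between endothelial and T/NK and 0.21 between endothelial and tumor cells. Under that scaling Gbp2 was lower in macrophage than in endothelial cells (−0.91, adjusted p = 0.0012), and the excess of Gbp2 and Gbp3 in macrophage over T/NK cells was lost (0.51 and 0.48, adjusted p = 0.062 and 0.14).

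**Figure D1:**
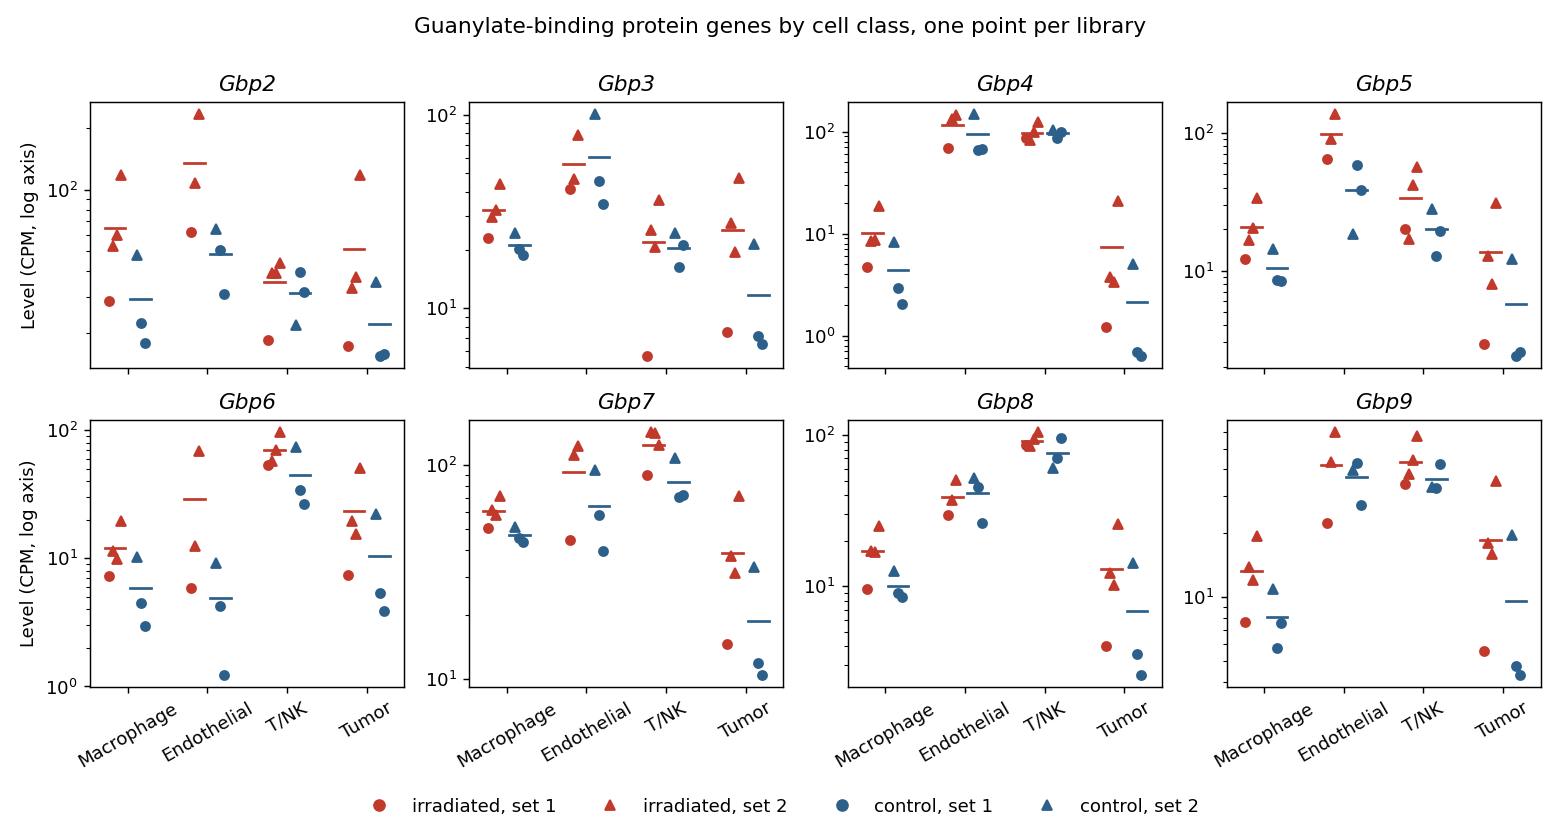
Level of each member in CPM (log axis) in the 4 cell classes, with 1 point per library, red for irradiated and blue for control, circles for technical set 1 and triangles for set 2, and horizontal lines at group means. Gbp4 sat between 66.6 and 150 CPM in endothelial and T/NK cells and between 0.634 and 20.9 CPM in macrophage and tumor cells, and in the latter pair of classes every triangle lay above every circle.

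Markers of one class were far lower in the other classes than the members were, relative to each gene's own class. Summed over Lyz2, C1qb, C1qc and Ms4a7, macrophage markers in tumor cells were at 0.188% to 0.439% of their level in macrophage cells, while the summed members were at 42.1% to 114%. In T/NK cells those macrophage markers were at 0.430% to 1.79% and the members at 183% to 372%. Endothelial markers (Cldn5, Esam and Egfl7) in tumor cells were at 0.208% to 0.331% of the endothelial level, against 13.8% to 44.6% for the members. The T/NK markers Cd3g, Trbc2 and Nkg7 averaged 0.0987, 0.182 and 0.104 CPM in tumor cells, whereas the 4-marker sum with Ccl5, which myeloid and tumor cells held at 124 and 69.1 CPM, was at 0.795% to 4.15%.

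Between irradiated and control tumors, no member passed the test in any class. The sums of UMIs per library were compared with the same edgeR test, adjusted over all genes tested (12891 in macrophage, 6954 in endothelial, 7502 in T/NK and 17297 in tumor cells), and 0 genes (0%) had an adjusted p under 0.05 in each of the classes. At an unadjusted p under 0.05 there were 628, 380, 423 and 218 genes in either direction, and DESeq2 called 3, 1, 0 and 3 genes. The 8 members had higher fitted levels in irradiated tumors in macrophage (8 of 8) and tumor cells (8 of 8), 7 of 8 did in T/NK cells and 5 of the 7 tested did in endothelial cells, where Gbp6 had too few UMIs. Over all genes tested, 48.7%, 46.1%, 50.4% and 49.5% were higher in these 4 classes, in the same order, and 62.8% in tumor cells when library totals replaced TMM factors, under which 8 of 8 members were still higher there.

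In macrophage cells the median log2 fold change of the members was 0.86, against −0.01 for all genes. Gbp2 was at 28.7, 53.4, 59.9 and 118 CPM in irradiated tumors 1 to 4 and at 47.9, 22.4 and 17.9 CPM in controls 1 to 3. Irradiated 4 was highest and control 3 lowest, and the groups overlapped because control 1 lay above irradiated 1. The log2 fold change was 1.13 (SE 0.51, adjusted p = 0.83). Gbp5 was at 12.2, 16.7, 20.2 and 33.8 CPM in irradiated tumors and at 14.4, 8.59 and 8.44 CPM in controls, again with control 1 above irradiated 1, for a log2 fold change of 0.97 (SE 0.36, adjusted p = 0.83).

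Gbp7 differed least between libraries, at 50.9, 61.3, 58.3 and 71.8 CPM in irradiated and 51.4, 45.5 and 43.7 CPM in control macrophage cells. Only control 1 and irradiated 1 were out of group order, by less than 1 CPM, and the log2 fold change was 0.34 (SE 0.12, adjusted p = 0.83). Gbp4 spanned 4.68 to 18.6 CPM in irradiated and 2.04 to 8.37 CPM in control macrophage cells (log2 fold change 1.17, SE 0.59). Gbp3 (0.58, SE 0.20), Gbp6 (1.02, SE 0.47), Gbp8 (0.75, SE 0.30) and Gbp9 (0.70, SE 0.32) were between these on the log2 scale. Unadjusted p values under 0.05 were found for 4 of the 8 (Gbp3, Gbp5, Gbp7 and Gbp8), where 2.58% of all genes were higher at that level, and none of the 8 had all irradiated above all control libraries, as 3.02% of all genes did.

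**Figure D2:**
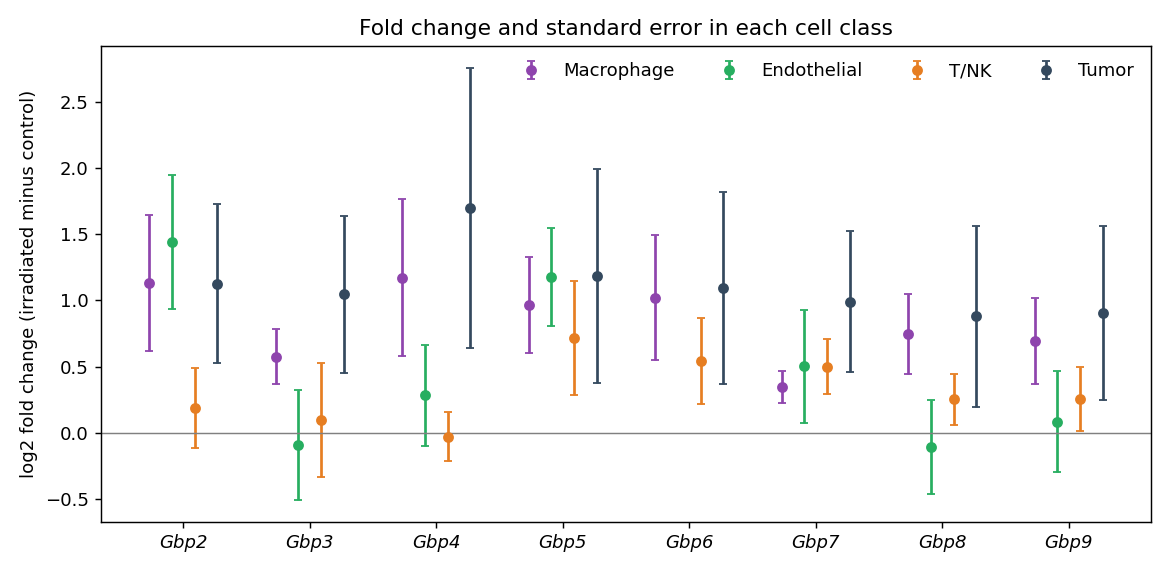
Log2 fold change of each member, irradiated minus control, from the edgeR fit in each cell class, with bars of 1 standard error and a line at 0. Macrophage values ran from 0.34 (Gbp7) to 1.17 (Gbp4) and tumor values from 0.88 (Gbp8) to 1.70 (Gbp4) with wider errors, and Gbp6 was not tested in endothelial cells.

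In tumor cells the median log2 fold change was 1.07, against −0.02 for all genes, with larger errors than in macrophage cells. Gbp2 was at 17.3, 33.1, 37.6 and 118 CPM in irradiated tumors 1 to 4 and at 35.3, 15.4 and 15.7 CPM in controls 1 to 3. Irradiated 4 stood above all others, control 1 lay among irradiated 2 and 3, and irradiated 1 lay close to controls 2 and 3, so the groups overlapped. The log2 fold change was 1.13 (SE 0.60, adjusted p = 1.00). Gbp4 was at 1.22, 3.78, 3.38 and 20.9 CPM in irradiated and 5.04, 0.693 and 0.634 CPM in control tumor cells (log2 fold change 1.70, SE 1.06). Gbp6 was at 7.43, 19.5, 15.5 and 50.8 CPM in irradiated and 22.2, 5.39 and 3.91 CPM in control tumor cells (1.09, SE 0.73). Irradiated 4 was highest and controls 2 and 3 were lowest for all 8 members, and the order of the libraries between them varied. None had an unadjusted p under 0.05 or fully separated groups, and 0.278% and 1.48% of all genes did in that direction.

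In endothelial cells the values rested on 27 to 146 cells per library. Gbp5 was at 65.1, 89.8 and 138 CPM in irradiated tumors 1, 3 and 4 and at 18.4, 58.1 and 38.4 CPM in controls, so that all irradiated libraries lay above all controls, as 6.26% of all genes did. Its log2 fold change was 1.18 (SE 0.37, adjusted p = 0.72). Gbp2 was at 62.1, 108 and 235 CPM in irradiated and 64.3, 51.0 and 31.0 CPM in control libraries, with irradiated 1 just below control 1 (log2 fold change 1.44, SE 0.51, adjusted p = 0.89). These were the 2 members with an unadjusted p under 0.05, against 2.59% of all genes. With no filter on low counts, the edgeR test called 78 of 17262 genes in endothelial cells, against 0 of 6954 with the filter. Both members were among the 78 (Gbp2 1.42, adjusted p = 0.0012, and Gbp5 1.16, adjusted p = 0.033). The other tested members had unadjusted p values of 0.26 or more, with log2 fold changes of 0.50 (SE 0.42) for Gbp7, 0.29 (SE 0.38) for Gbp4, −0.09 (SE 0.42) for Gbp3, −0.10 (SE 0.35) for Gbp8 and 0.09 (SE 0.38) for Gbp9. Gbp6 was at 5.92, 12.4 and 69.0 CPM in irradiated and 9.19, 4.25 and 1.24 CPM in control libraries, which came from 1 to 22 UMIs each.

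In T/NK cells the differences were smaller, with a median log2 fold change of 0.25 against 0.00 for all genes. Gbp7 was at 89.6, 142, 140 and 124 CPM in irradiated and 107, 70.5 and 72.2 CPM in control libraries, with irradiated 1 below control 1. Its log2 fold change was 0.50 (SE 0.20, adjusted p = 0.85), and it was the 1 member with an unadjusted p under 0.05, against 2.45% of all genes. Gbp4, high in this class, was at 86.8, 82.8, 98.5 and 124 CPM in irradiated and 104, 86.8 and 100 CPM in control libraries. Its groups overlapped throughout (log2 fold change −0.03, SE 0.18). Gbp5 (0.72, SE 0.43) and Gbp6 (0.54, SE 0.32) had the largest fitted values, and no member had fully separated groups, as 4.71% of all genes did.

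The difference in the effect of irradiation between classes was tested by the exact permutation of library labels, two-sided, with 24 tests adjusted together. Between macrophage and tumor cells the effects differed by −0.68 (Gbp7) to 0.13 (Gbp2) on the log2 scale, with a smallest p of 0.29. Between macrophage and T/NK cells they differed by −0.20 (Gbp7) to 1.24 (Gbp4), with a smallest p of 0.11, and between macrophage and endothelial cells by −0.38 (Gbp6) to 0.94 (Gbp4), with a smallest p of 0.10. The smallest adjusted p was 0.53, while the smallest p these permutation designs allow is 0.029 with 7 libraries and 0.10 with 6. A difference between classes in the response was therefore not shown, nor was its absence.

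In macrophage and tumor cells the members moved together from library to library, and they did so less in endothelial and T/NK cells. Over the 28 pairs of members, Pearson's r of log2 CPM ran from 0.89 to 0.99 (median 0.96) over the 7 libraries in macrophage cells and from 0.93 to 1.00 (median 0.98) in tumor cells. In endothelial cells it ran from −0.20 to 0.98 (median 0.72, 6 libraries) and in T/NK cells from 0.05 to 0.84 (median 0.46). These values are a description, since all members of a library share its cells and depth. The summed members were highest in irradiated 4 in all 4 classes, at 350 CPM in macrophage, 897 in endothelial, 642 in T/NK and 400.0 in tumor cells. The lowest sums were 110 CPM (control 3) in macrophage, 265 (control 3) in endothelial, 364 (control 2) in T/NK and 46.8 (control 3) in tumor cells.

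**Figure D3:**
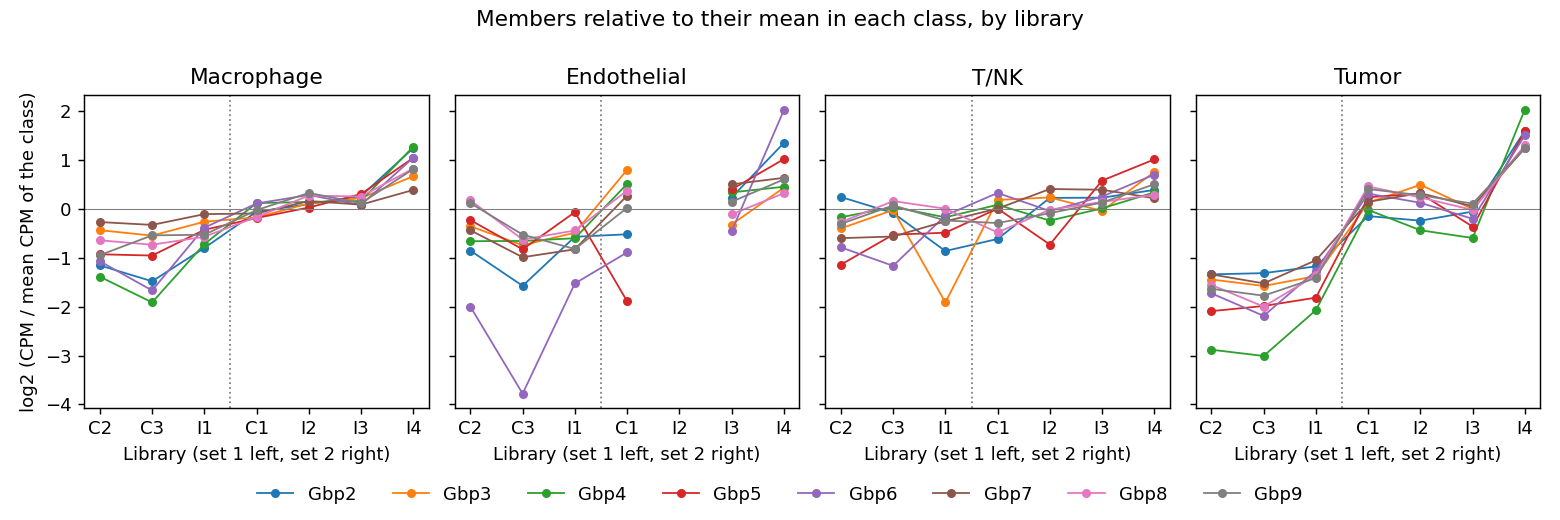
Each member relative to its mean over libraries (log2 of CPM over mean CPM) in the 4 classes, with irradiated (I) and control (C) libraries ordered by technical set and the sets parted by a dotted line. In macrophage and tumor cells the 8 lines ran nearly in parallel and peaked at I4, and every set 2 library lay above every set 1 library. Endothelial I2 is missing because it had 18 cells.

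In macrophage and tumor cells the order followed the technical sets, while no member had fully separated irradiated and control groups there. In both macrophage and tumor cells, all 4 set 2 libraries lay above all 3 set 1 libraries for 8 of 8 members. Set 2 holds 3 of the 4 irradiated tumors. The share of all genes with that order was not computed, so whether it is particular to the members is not known. The part of the sets in the difference was not tested beyond the within-set values, which follow. Within set 1, irradiated 1 exceeded the mean of controls 2 and 3 by 0.12 to 0.96 in macrophage cells and by 0.14 to 0.84 in tumor cells on the log2 CPM scale. Within set 2, irradiated 2, 3 and 4 exceeded control 1 by 0.30 to 0.64 in macrophage cells and 0.05 to 0.58 in tumor cells, for 8 of 8 members in each case. With the set as a term, the edgeR log2 fold changes were 0.25 to 0.67 (median 0.51) in macrophage and 0.23 to 0.84 (median 0.38) in tumor cells, and 3 of 7 endothelial and 6 of 8 T/NK values stayed above 0. Without irradiated 4, the fold changes were 0.25 to 0.68 in macrophage cells and 0.36 to 0.61 in tumor cells, still above 0 for 8 of 8 members in each. Without control 1, the highest control for the summed members in both classes, they were larger, at 0.41 (Gbp7) to 2.01 (Gbp4) in macrophage and 1.56 (Gbp2) to 3.27 (Gbp4) in tumor cells, and none passed the test (adjusted p = 0.53 and 0.77).

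Interferon-gamma transcript was found mainly in T/NK cells. Ifng was at 239, 40.7, 75.3 and 163 CPM in T/NK cells of irradiated tumors 1 to 4 and at 101, 85.0 and 213 CPM in controls 1 to 3, and at most 0.343 CPM in a library of another class. It did not follow the order of the members in macrophage and tumor cells, since irradiated 1 had the most and irradiated 2 the least. T/NK cells were 3.68%, 4.74%, 5.54% and 7.37% of retained cells in irradiated tumors 1 to 4 and 2.56%, 3.16% and 2.71% in controls 1 to 3. Irradiated 4, with the highest share, also had the highest members in macrophage and tumor cells. Control 1, with the lowest share, had the highest summed members of the controls in both classes. Its sums of 180 CPM in macrophage and 163 CPM in tumor cells exceeded those of irradiated 1 (144 and 60.5 CPM). A link between the share and the members was not tested.

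Other interferon genes were read beside the members from lists that were chosen with earlier results known, and 0 of their genes were called in either direction in any class. In macrophage cells, 7 of 10 tested genes of interferon-gamma signaling were higher in irradiated tumors (median log2 fold change 0.37). Irf1, an interferon-induced transcription factor, was at 56.7 CPM ± 17.9 (SD, n = 4) against 37.4 ± 0.293 (n = 3), with a log2 fold change of 0.58 (SE 0.22, adjusted p = 0.83). All 6 tested immunity-related GTPases, relatives that act with the guanylate-binding proteins on vacuoles, were higher (median 0.90), led by Tgtp2 (1.28, SE 0.64), Irgm1 (1.00, SE 0.44) and Iigp1 (0.98, SE 0.41). All 11 tested other interferon-gamma targets were higher (median 0.57), among them the T cell-attracting chemokines Cxcl9 (1.27, SE 0.66) and Cxcl10 (0.93, SE 0.42) and the checkpoint ligand Cd274 (0.86, SE 0.34). Of 7 type I interferon genes, 6 were higher (median 0.44; Irf7 0.91, SE 0.52), and of 8 inflammasome genes 6 were (median 0.20; Casp1 0.41, SE 0.16, and Il1b −0.39, SE 0.49).

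In tumor cells 7 of 7 GTPase relatives were higher (median 1.32), the highest median of the pathway lists, and Iigp1 was at 67.0 CPM ± 77.4 in irradiated and 17.8 ± 14.7 in control tumors (1.83, SE 0.88). In the signaling list 6 of 10 were higher (median 0.05), among them Nlrc5, the activator of MHC class I genes (0.79, SE 0.44). The other targets were higher for 11 of 11 (median 0.44), with Cxcl9 at 6.83 ± 7.33 against 0.883 ± 0.111 CPM (2.81, SE 0.89), 6 of 7 type I genes were higher (median 0.32), and 2 of 8 inflammasome genes were (median −0.28). In endothelial cells the counts were 2 of 8 signaling genes (median −0.23), 3 of 6 type I genes (0.10), 4 of 5 GTPases (0.31), 11 of 11 targets (0.57) and 0 of 2 inflammasome genes (−0.33), with Cxcl9 at 304 ± 397 against 25.8 ± 12.7 CPM (3.55, SE 1.42). The endothelial Cxcl9 values were 28.1, 124 and 759 CPM in irradiated 1, 3 and 4 and 33.7, 32.6 and 11.1 CPM in controls, so irradiated 4, with 27 cells, carried the mean and irradiated 1 lay among the controls. In T/NK cells the counts of these lists, in the same order, were 3 of 10 (−0.05), 6 of 7 (0.27), 4 of 5 (0.32), 7 of 10 (0.17) and 3 of 5 (0.12).

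Among 9575 genes with a mean of at least 10 CPM, gate and Gbp genes left out, those whose pattern was most like the mean of the members over the 27 class by library values were Iigp1 (Pearson's r 0.94), Samd9l (0.92), Gm19684 (0.91), Irgm2 (0.91) and Herc6 (0.90). The points share libraries and classes, so these values are a description. Iigp1 and Irgm2 are immunity-related GTPases, and Samd9l and Herc6 are known as interferon-induced genes.

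In macrophage cells, the members were compared between cells with and without a UMI of Cxcl9, a chemokine that interferon-gamma induces. Each cell was thinned to 1000 UMIs, and 1.15% to 3.85% of cells held a Cxcl9 UMI in 6 libraries and 10.4% in irradiated 4. Gbp2 was at 260, 360, 286 and 337 CPM in Cxcl9-positive cells of irradiated tumors 1 to 4 and at 421, 231 and 143 CPM in those of controls 1 to 3, against 19.97, 40.6, 65.8 and 85.8 CPM and 35.7, 28.5 and 15.8 CPM in Cxcl9-negative cells. Every library had the higher value in positive cells, with no overlap, and the mean difference was 2.86 on the log2 scale (SD 0.63, n = 7, exact sign-flip permutation p = 0.016, adjusted p = 0.042 over 8 members). That is the smallest p this test can give with 7 libraries. Gbp5 (2.26, SD 0.94) and Gbp8 (1.20, SD 0.88) were also higher in 7 of 7 libraries, with the same p values, but rested on 30 and 15 UMIs in positive cells over all libraries, and on as few as 1 in a library.

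Gbp7 was higher in 6 of 7 libraries (0.94, SD 0.89, adjusted exact permutation p = 0.094). Gbp6 (1.22, SD 2.10), Gbp3 (0.60, SD 2.72), Gbp4 (0.67, SD 1.81) and Gbp9 (−0.10, SD 2.17) did not pass, and each had a library with 0 UMIs in positive cells, where 12 to 32 UMIs in all were found. Gbp9 averaged 25.5 CPM in positive and 11.5 CPM in negative cells, so its mean level and its mean log2 difference had opposite signs. In cells that were not thinned, all 8 members were higher in positive cells of 7 of 7 libraries, by 0.77 (Gbp7) to 2.60 (Gbp2). The adjusted exact permutation p was 0.016 for each. Without thinning, deeper cells are more likely to be counted as positive. With or without thinning, the share of all genes higher in positive cells was not computed, so these differences are not shown to be particular to the members. Without any 1 library the thinned differences of Gbp2, Gbp5 and Gbp8 stayed above 0 but their adjusted exact permutation p was 0.063 to 0.083, since the smallest p is larger with fewer libraries.

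**Figure D4:**
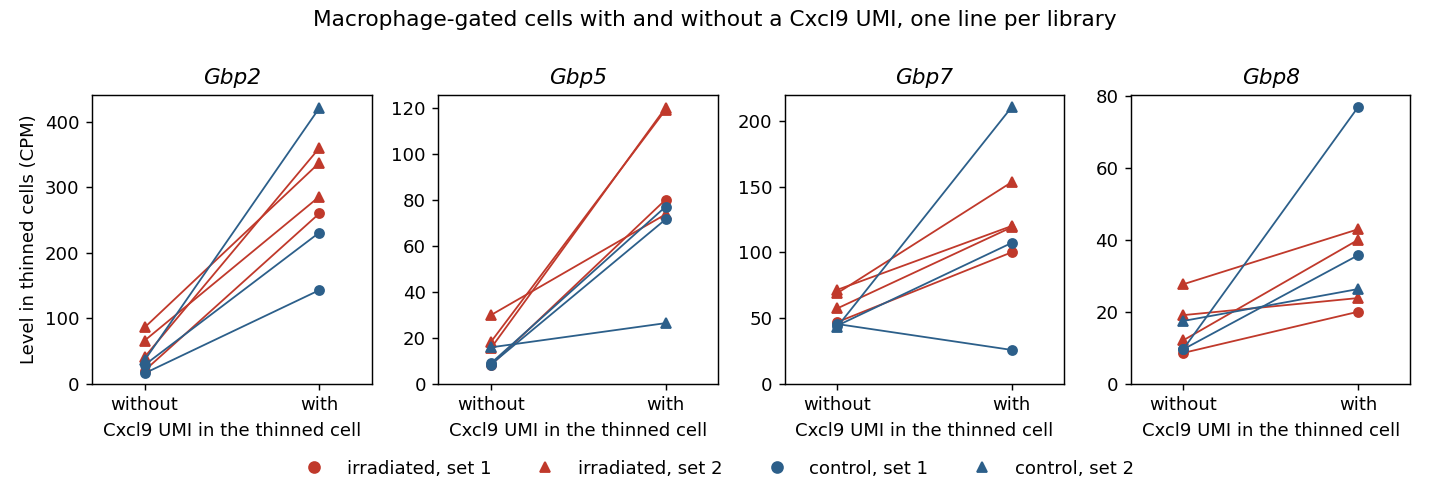
Level of Gbp2, Gbp5, Gbp7 and Gbp8 in CPM in macrophage-gated cells without and with a Cxcl9 UMI after thinning to 1000 UMIs, with 1 line per library, red for irradiated and blue for control. All 7 lines go up for Gbp2, Gbp5 and Gbp8, and 6 of 7 do for Gbp7.

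The share of cells with a UMI of any member was compared after thinning to 1000 UMIs, which left out shallower cells (127 irradiated and 192 control macrophage, 3 and 10 endothelial, 14 and 35 T/NK, 77 and 29 tumor cells). In macrophage cells it was 11.1%, 16.0%, 18.0% and 25.3% in irradiated tumors 1 to 4 and 14.1%, 11.1% and 9.79% in controls 1 to 3. In tumor cells it was 5.87%, 14.8%, 12.5% and 24.3% in irradiated and 13.8%, 4.83% and 4.91% in control tumors. The groups overlapped in both classes, with irradiated 1 among the controls and irradiated 4 highest. T/NK cells were at 37.7% ± 6.85 (SD, n = 4) against 31.4% ± 3.86 (n = 3) and endothelial cells at 34.4% ± 8.75 (n = 3) against 25.8% ± 9.46 (n = 3). Without thinning the shares were 40.5% to 72.7% in irradiated and 31.4% to 58.4% in control macrophage cells and 44.3% to 85.8% and 32.9% to 74.0% in tumor cells, where median depth ran from 4049.5 to 11909 and from 14117 to 29686 UMIs. Cells with 2 or more members after thinning were 3.63% ± 1.76 of irradiated and 1.56% ± 0.834 of control macrophage cells and 3.54% ± 3.28 and 1.18% ± 1.26 of tumor cells.

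The other family genes in the files were scarce. Gbp2b, the mouse Gbp1, had 0 to 3 UMIs in 6 macrophage libraries and 19 in irradiated 4, and none in endothelial or T/NK cells. Gbp10 was found chiefly in T/NK cells. There it was at 7.11, 7.02, 6.96 and 10.8 CPM in irradiated and 6.10, 1.81 and 5.29 CPM in control libraries. These values came from 1 to 14 UMIs each. Gbp10 shares most of its 3′ end with Gbp6, so its low counts need not mean low transcript levels. Gbp11 was at or below 1.81 CPM in every class and library.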

How the data were processed

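Droplet 3′ scRNA-seq libraries from 7 JW23.3 tumors (4 irradiated, 3 control) were analysed. The authors aligned reads with Cell Ranger (version 8.0.0 per the file headers) to mm10 and deposited UMI counts per gene and cell, unnormalized, with 53496570 to 153044123 UMIs per library. The paper lists an earlier version of Cell Ranger. The study's Seurat clusters were not used here.

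Within each library, outlying cells (more than 3 median absolute deviations from the median) were removed. Classes were gated on at least 3 host or 4 tumor markers, with no other of the 4 classes reaching its own cutoff. Gated cells could thus hold a few markers of another of these classes. At most 1 marker was allowed of each further type, such as dendritic, granulocyte or B cells. The cutoffs of these gates were set after detection counts had been seen. The stricter gates required 5 macrophage, 5 endothelial, 4 T/NK or 6 tumor markers and at most 1 marker of each other class. Scrublet called 529 retained cells doublets (1.54%), of which 28 were gated, and these were kept. Counts were summed per library and class of at least 20 cells and tested with edgeR 4.0.16 (R 4.3.3, filterByExpr, TMM, robust quasi-likelihood), and DESeq2 1.42.0 was an alternative. The threshold was an adjusted p of 0.05. CPM are UMIs per 1000000 of the class, and log2 CPM used a prior count of 2. Thinning drew 1000 UMIs per cell. The fits were tested on simulated data. Technical sets were found from quality measures only. The named genes were all 8 members, the other Gbp genes, up to 3 genes of largest absolute change per pathway list and class, and the 5 genes of most similar pattern. Ccl5, Ifng and gate check markers are given in addition, and 1 gene that the rule names is not reported here. Members and lists were chosen with earlier results of these data known. The labels call the libraries biological replicates. Intervals of sequencing error cover counting only.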

Additional observations from a re-analysis of the deposited data

Results flagged for a closer look

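Gbp4 in tumor cells of irradiated 4, at 20.9 CPM, lay far from the other irradiated tumors, which were between 1.22 and 3.78 CPM, with a gap of 0.870 of the group's range. It was the 1 value singled out among 24 groups of 4 libraries examined for a sample far from the others, and chance gives about 1 in 20 such groups. Irradiated 4 was also the highest library for the other 7 members in tumor cells.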

How the results depend on the processing

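The macrophage and tumor fold changes of the 8 members kept their direction in each of 136 alternative values per class and missed the threshold in each that had a test (the values within a technical set had none). Counts of genes called moved from 0 with DESeq2 (3 in macrophage, 1 in endothelial and 3 in tumor cells), with every gene that had a UMI (78 in endothelial and 80 in T/NK cells), with stricter gates (1 in endothelial cells) and with the technical set as a term (2 in T/NK cells). Leaving out 1 library gave 0 to 10 calls in T/NK cells, 10 of them without irradiated 1. The replicate numbers did not pair the samples (correlations of same-numbered deviations −0.43 to 0.11), and with the replicate block 0 genes were called in each class. The block turned fold changes of Gbp4 (−0.10) and Gbp9 (−0.0871) in endothelial and of Gbp2 (−0.0130) and Gbp3 (−0.40) in T/NK cells.

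Small differences turned direction, and the causes were not tested. In endothelial cells the fold changes turned for Gbp3 (stricter gates 0.22, set 1 0.0557), Gbp4 (set as a term −0.0663, set 2 −0.11), Gbp7 (set 1 −0.11), Gbp8 (stricter gates 0.25) and Gbp9 (set as a term −0.20, stricter gates −0.30, no cell filter −0.0648, set 1 −0.55). In T/NK cells they turned for Gbp2 (set 1 −0.86), Gbp3 (set as a term −0.35, stricter gates −0.0304, set 1 −1.36), Gbp4 (library totals 0.0234, every gene 0.0169, stricter gates 0.00425), Gbp6 (set 2 −0.0211) and Gbp9 (set 1 −0.11). Leaving out 1 library gave −0.40 to 0.40 (Gbp3), −0.39 to 0.11 (Gbp8) and −0.27 to 0.49 (Gbp9) in endothelial and −0.0405 to 0.41 (Gbp2), −0.31 to 0.37 (Gbp3) and −0.17 to 0.0378 (Gbp4) in T/NK cells. Levels turned with library totals for Gbp7 macrophage minus endothelial (−0.45), Gbp9 macrophage minus tumor (−0.22) and endothelial minus T/NK for Gbp9 (0.13) and Gbp4 (0.0940), with stricter gates for Gbp6 macrophage minus endothelial (0.18), endothelial minus T/NK for Gbp9 (0.31) and Gbp4 (0.45) and Gbp2 T/NK minus tumor (0.0516), and without doublets for Gbp9 endothelial minus T/NK (0.00612). Leaving out 1 library gave −0.0388 to 0.15 (Gbp7) and −0.17 to 0.68 (Gbp6) for macrophage minus endothelial, −0.0200 to 0.34 (Gbp9) for macrophage minus tumor, −0.18 to 0.11 (Gbp9) and −0.13 to 0.0584 (Gbp4) for endothelial minus T/NK and −0.33 to 0.18 (Gbp2) for T/NK minus tumor.

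The alternatives that follow were chosen after seeing the data, except for cells that were not thinned, where the Gbp9 difference by Cxcl9 was 1.09. Leaving out 1 library gave −0.50 to 0.31 for that difference, and without any 1 library no member was called (adjusted exact permutation p 0.063 to 0.083 for Gbp2, Gbp5 and Gbp8). Differences of effects turned with stricter gates for Gbp5 macrophage minus tumor (0.13) and Gbp7 macrophage minus endothelial (0.0756), and with no cell filter for Gbp2 macrophage minus endothelial (0.0363). Leaving out 1 library gave −0.44 to 0.12 (Gbp7), −0.67 to 0.0697 (Gbp6), −0.31 to 0.0797 (Gbp2) and −0.80 to 0.31 (Gbp5) for macrophage minus endothelial and −0.40 to 0.10 (Gbp6) and −0.93 to 0.00839 (Gbp8) for macrophage minus tumor. Endothelial and T/NK values rest on few cells, and shares of cells with a UMI of any member were higher without thinning in every class and group.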

Other observations

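After thinning to 1000 UMIs, how often Gbp2 was found in cells with and without another member varied with the member and the class. In macrophage cells a median of 18.8% of cells with a Gbp5 UMI held Gbp2 over 7 libraries, against 3.68% of cells without one, and the share was higher in 7 of 7 libraries. For Gbp3 the medians were 11.1% and 3.63%, again higher in 7 of 7, and for Gbp9 they were 13.3% and 3.83%, higher in only 4 of 7. In tumor cells they were 15.2% and 3.21% for Gbp6 and 11.3% and 3.06% for Gbp7, both higher in 7 of 7 libraries. Gbp8 in tumor cells (4.76% and 2.55%) was higher in 3 of the 6 libraries with enough cells. In T/NK cells the Gbp8 medians were 0% and 3.83%, with 1 of 6 libraries higher. These shares rest on few UMIs and were not tested.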
